A study of Mus musculus with 50 samples.

Results

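Transcripts that lay outside segmented cells were compared with those inside cells in sections of mouse liver imaged by CosMx, an assay in which fluorescent probes are read in cycles and each decoded spot is 1 transcript of 1 target. The platform assigns a spot to a cell when it falls within the border drawn for that cell, and spots in no cell are stored under cell number 0. The members were the 50 lines with that number, 1 per field of view, which held 520976 of 7557143 decoded transcripts, or 6.89%, and the comparator was the sum of the cells of the same fields. Of the transcripts outside cells, 517711 belonged to the 1000 gene targets and 3265 to the 10 negative probes, which match no mouse transcript.

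The sections came from wild-type mice (control) and from mice in which the H3.3 chaperone HIRA was deleted in hepatocytes (HIRA KO). Both groups received AAV8 Tbg-Cre when they were aged 6 months and were examined 12 months later, at 18 months, so the controls carry the virus and the recombinase as well. The Tbg promoter drives Cre in hepatocytes, so other liver cells keep the gene, and Hira was not in the panel, so the deletion was not checked here. Each group had 25 fields of view on sections of 5 μm. The fields form 3 tissue areas per group, of 8 or 9 fields each, and the area was taken as the replicate. No label names the mouse of an area, so the p-values describe the spread between areas. On the slide the controls filled 1 column and the HIRA KO tissue filled the other, so side and genotype cannot be told apart.

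A mature messenger RNA is made in the nucleus and exported to the cytoplasm to be translated, whereas some RNAs, such as the long noncoding Neat1 of paraspeckles, are retained in the nucleus. Liver tissue is a sheet of large hepatocytes lined by sinusoids, and the platform draws the border of a cell from stains of nuclei and membranes. Hepatocytes carry very abundant messenger RNAs for secreted plasma proteins. Negative probes show how often a target is decoded without its transcript, inside cells and outside them.

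The share of gene transcripts outside cells was 5.63%, 5.45% and 7.77% in the 3 control areas and 7.70%, 6.10% and 8.40% in the 3 HIRA KO areas. The groups overlapped, with means of 6.29 ± 1.29% and 7.40 ± 1.18% (SD, n = 3 areas each), and the difference of 1.11 percentage points did not pass an exact permutation test (two-sided p = 0.3, where 3 against 3 cannot go below 0.1). With 1 area left out this difference ran from 0.61 to 1.86 percentage points. The outside sums held between 55324 and 127006 gene transcripts per area, against 741485 to 1569254 inside. Single fields of view ranged from 1.69% to 15.2% within the areas, a wider span than that between areas.

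Negative probes lay outside cells more often than gene transcripts in 6 of 6 areas. Their share was 7.96%, 9.49% and 12.0% in control and 10.4%, 8.33% and 11.4% in HIRA KO areas, from 293 to 722 outside counts per area. The difference from genes averaged 3.10 ± 0.87 percentage points (SD, n = 6 areas, exact sign-flip test, two-sided p = 0.031, the smallest that 6 pairs allow). Between the groups the share of negative probes differed by 0.21 percentage points (exact permutation p = 0.9). Each of the 10 negative probes had a pooled share outside between 8.32% and 10.7%, above the 6.73% of the median gene.

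**Figure D1:**
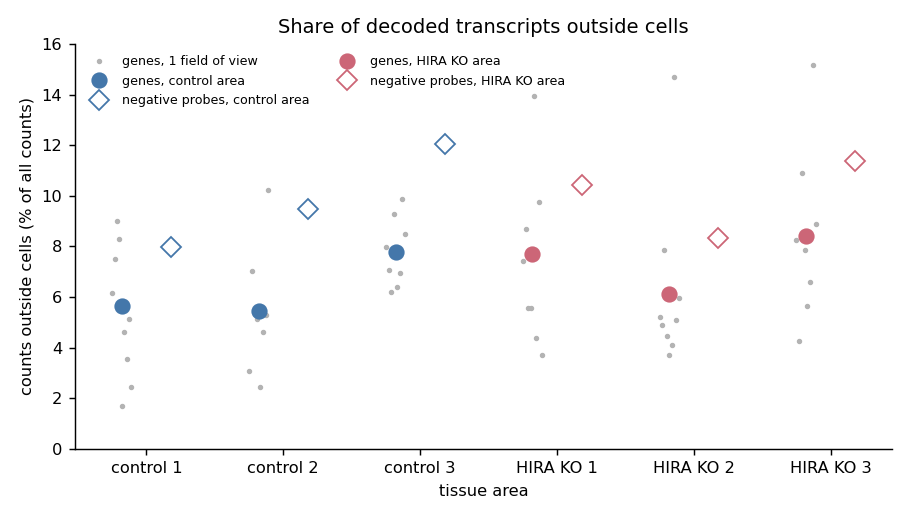
Share of counts outside cells, in percent of all counts, for gene targets (filled circles) and negative probes (open diamonds) in the 3 control (blue) and 3 HIRA KO (red) areas, with small grey points for gene targets in single fields of view. The diamonds lie above the filled circles in 6 of 6 areas.

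Counts per negative probe over counts per gene target, a measure of background relative to signal, were therefore higher outside. The ratio inside cells ranged from 0.366 to 0.458 over the 6 areas, and outside it was 0.530, 0.811 and 0.744 in control and 0.584, 0.633 and 0.5685 in HIRA KO areas. Outside over inside, the log2 difference averaged 0.59 ± 0.16 (SD, n = 6 areas, exact sign-flip p = 0.031), a 1.51-fold rise. The log2 difference was 0.53, 0.86 and 0.70 in the control areas and 0.48 in each HIRA KO area. Control areas were thus above HIRA KO areas without overlap, a difference between groups that was not tested on its own.

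The outside space was 14.7%, 16.8% and 19.7% of the imaged area in control and 16.6%, 14.7% and 18.4% in HIRA KO, by the deposited cell outlines. Gene transcripts outside cells had a density of 2.30, 2.56 and 2.19 per 1000 square pixels of that space in control areas and 4.51, 4.24 and 4.77 in HIRA KO areas. Inside cells the density was 6.66, 8.98 and 6.37 in control and 10.8, 11.3 and 11.7 in HIRA KO areas. The outside was sparser than the inside in 6 of 6 areas, at 0.36-fold of the inside density (mean log2 ratio -1.47 ± 0.20, SD, n = 6 areas, exact sign-flip p = 0.031). Negative probes were also sparser outside, at 0.542-fold (log2 ratio -0.88 ± 0.09, SD, n = 6 areas, exact sign-flip p = 0.031).

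HIRA KO areas held more gene transcripts per area of tissue than control areas in both compartments, with no overlap. Outside cells the density was 1.92-fold that of control and inside 1.53-fold, each with an exact permutation p of 0.1, the smallest possible for 3 areas against 3. The outside over inside ratio was 0.346, 0.286 and 0.343 in control and 0.419, 0.375 and 0.408 in HIRA KO areas, a difference of 0.31 on the log2 scale (exact permutation p = 0.1). Negative probe counts per 1000000 square pixels were 12.2, 20.8 and 16.3 outside cells in control and 26.3, 26.8 and 27.1 in HIRA KO areas, and inside they were 24.4, 39.99 and 29.2 against 44.98, 51.1 and 47.5. Background thus moved with genotype in both compartments, and its part in the density difference was not tested. The comparisons of density between genotypes were added after seeing the data.

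The assignment of transcripts to cells and the deposited outlines differed in both directions. Of the transcripts of cells 92.4% lay in the outline of their own cell, and of those in no cell 97.3% lay outside every outline. How the outlines were drawn from the borders used for assignment is not given in the sources used here, so areas and distances hold for the outlines. Of gene transcripts inside cells, 264487 lay outside every outline, and they made up 30.7% to 37.9% of gene transcripts between outlines. Of those within 5 pixels of an outline, 62.5% to 68.9% per area were assigned to a cell, and of those beyond 80 pixels 2.24% to 7.81%. Transcripts not assigned to a cell had a density of 2.05 ± 0.73 per 1000 square pixels within 5 pixels of an outline, 4.29 ± 1.45 at 20 to 40 pixels and 2.60 ± 1.79 beyond 80 pixels (SD, n = 6 areas). When assigned transcripts in the same space were added, density was highest beside the outline, at 5.95 ± 1.93, and fell to 4.96 ± 1.60 at 20 to 40 pixels and 2.69 ± 1.82 beyond 80 pixels. Beyond 80 pixels, 5 areas had between 0.988 and 3.09 unassigned transcripts per 1000 square pixels and the second HIRA KO area had 5.93.

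**Figure D2:**
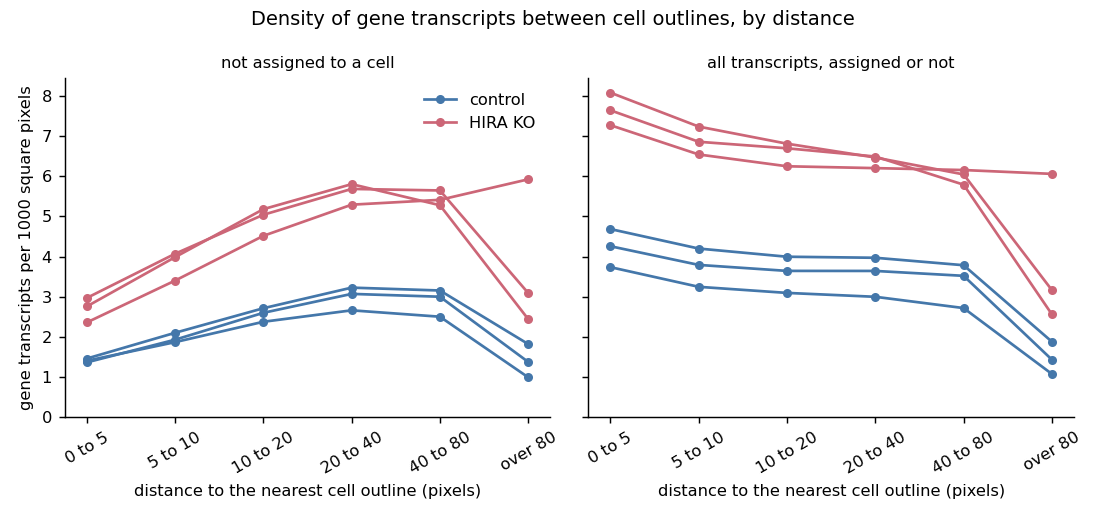
Gene transcripts per 1000 square pixels between cell outlines against the distance to the nearest outline in pixels, for transcripts in no cell (left) and for all transcripts (right), 1 line per area, control in blue and HIRA KO in red. The left panel rises to 20 to 40 pixels and then falls, except in the second HIRA KO area, where it rises further to 5.93 beyond 80 pixels. The right panel is highest at 0 to 5 pixels in 6 of 6 areas.

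With the area of cells as the cell table gives it, which is larger than the outlines, the outside space was 10.7% to 15.7% of the image and its density 0.394- to 0.593-fold of the inside. By position alone, with every gene transcript counted between or within outlines whatever its assignment, the ratio was 0.560, 0.461 and 0.50003 in control and 0.639, 0.599 and 0.602 in HIRA KO areas. The outside stayed sparser in 6 of 6 areas by both measures, and HIRA KO areas stayed above control areas.

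The median distance of outside gene transcripts to a cell outline was 17.7, 20 and 18.4 pixels in control and 16.1, 17.7 and 19.2 pixels in HIRA KO areas, with overlapping groups (difference -1.04 pixels, exact permutation p = 0.5, and -1.80 to -0.26 pixels with 1 area left out). Negative probe counts lay 0.98 ± 0.68 pixels farther out (SD, n = 6 areas, exact sign-flip p = 0.0625), with 5 areas higher and 1 equal.

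The share outside also varied with the depth of the image. In the lowest of the planes the gene share outside had a median of 1.88% over the 6 areas, in plane 4 8.05% and in plane 7 9.93%. For negative probes the medians were 2.56%, 11.01% and 13.7%. Within each area, the share of a field of view followed the space between its cells, with Pearson r from 0.819 to 0.978 over the 8 or 9 fields, given as a description since fields of an area share a section and their transcripts share the segmentation.

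The profile of genes outside cells resembled the profile inside them. Over the 735 genes with more counts than the highest negative probe, Pearson r of log2 CPM (counts scaled to a total of 1000000 per compartment and area) between outside and inside of the same area ranged from 0.834 to 0.935 (across genes, which are not independent replicates). By total count alone the other 265 genes could not be told from the highest negative probe. Their median share outside was 6.86%, against 6.70% for the 735 genes and 8.32% to 10.7% for single negative probes.

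Against this likeness, 192 of 998 tested genes (19.2%) made up a larger part of the outside transcripts than of the inside ones, and 187 (18.7%) a smaller part, or 137 and 211 when scaled by library size alone (edgeR quasi-likelihood test with the area as a block, Benjamini-Hochberg adjusted p under 0.05). These folds compare a gene with the other genes of its compartment after TMM scaling, so a rise here is a rise relative to the panel. Relative to the negative probes, 0 genes were higher outside and 952 were lower, and the median gene was at -0.60 on the log2 scale. The calls of genes higher outside in the following paragraphs hold against other genes and not against the negative probes. Of 36 such genes named in this way, 35 had a negative fold against the negative probes, and Mcpt8 had 0.019 with its call lost.

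The 10 genes with the most transcripts outside cells were hepatocyte and housekeeping genes, of which 6 were called higher and 1 lower outside. Ttr, which encodes the plasma carrier transthyretin, led with 25248 outside transcripts, 4.88% of those outside against 3.32% of those inside. Its share outside was 5.51%, 8.06% and 9.95% in control and 8.89%, 9.36% and 11.9% in HIRA KO areas. It was thus below the area's overall share in the first control area and above it in the other 5 (log2 fold change 0.43 ± 0.16 SE, edgeR adjusted p = 0.0333). Apoc1, an apolipoprotein of lipoprotein particles, had 5.34%, 9.61% and 12.9% in control and 9.48%, 9.62% and 12.8% in HIRA KO areas, with the same area lowest (log2 fold change 0.59 ± 0.15 SE, edgeR adjusted p = 0.00178).

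Gpx1, a glutathione peroxidase that removes hydrogen peroxide, and Gc, the vitamin D binding protein of plasma, were higher outside by 0.52 and 0.47 on the log2 scale (edgeR adjusted p = 0.00417 and 0.00411), again in 5 of 6 areas. Tpt1, a translationally controlled housekeeping gene, was higher outside in 6 of 6 areas, by 0.45. When the transcripts of imaging planes 4 to 7 alone were used, an alternative chosen after seeing the data, Ttr was at 0.16, Apoc1 at 0.32, Gpx1 at 0.31, Gc at 0.24 and Tpt1 at 0.21, and 0 of these 5 passed. The 5 calls were also lost without the area as a block, and that of Ttr when any area but the first control area was left out (0.37 to 0.47). Apoe and Selenop, which encode an apolipoprotein and a selenium carrier of plasma, had log2 values of 0.29 and 0.29 that did not pass (edgeR adjusted p = 0.0839 and 0.0679). B2m, the light chain of MHC class I, was at 0.04 with adjusted p = 0.832. Ppia, a cytosolic prolyl isomerase, was lower outside, with shares of 4.31%, 3.26% and 4.92% in control and 7.23%, 5.40% and 7.98% in HIRA KO areas (log2 fold change -0.34 ± 0.14 SE, edgeR adjusted p = 0.0457). Its call was lost without the second control area (-0.27), the third control area (-0.26), the first HIRA KO area (-0.39) or the second HIRA KO area (-0.39).

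The next genes were named for the largest rise outside among those higher in all 6 areas and with more counts than the highest negative probe both outside and inside, which leaves out Apoc1, Gpx1 and Gc. Mcpt8, a mast cell and basophil protease, had the largest fold of these, 0.63 ± 0.07 SE on the log2 scale (edgeR adjusted p = 3.46e-08), with shares of 8.04%, 8.85% and 13% in control and 11.1%, 8.41% and 11.1% in HIRA KO areas. Under the same rule it was followed by the growth factor homologue Fgf13, the antioxidant enzyme Sod1, the DNA repair enzyme Parp1, interferon gamma (Ifng), the pancreatic secretory gene Reg1, the receptor tyrosine kinase Kit, the progesterone receptor Pgr, the collagenase Mmp1a and Tpt1, with log2 folds from 0.56 to 0.45. Apart from Sod1 and Tpt1 these genes had between 424 and 719 outside counts, against 418 for the highest negative probe, so their outside counts were close to those of background.

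The genes that fell outside cells did so by more. Neat1 had a share outside of 1.47%, 0.818% and 0.854% in control and 2.16%, 1.69% and 1.73% in HIRA KO areas, the lowest of the named genes in every area (log2 fold change -2.34 ± 0.14 SE, edgeR adjusted p = 4.95e-16). HIRA KO areas were above control areas without overlap for Neat1, while the outside over inside ratio differed between genotypes for 0 of 998 genes (edgeR interaction test). The receptor chain Il15ra averaged 2.53 ± 1.03%, the thymidylate synthase Tyms 3.08 ± 1.16%, the angiogenic factor Vegfa 3.09 ± 0.68% and the lectin Clec2d 3.44 ± 1.19% (SD, n = 6 areas). Their log2 folds were -1.51, -1.22, -1.18 and -1.05.

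By the same rule on areas and counts, the next named were the complement inhibitor Cd59a at -0.74, the splicing factor Srsf2 at -0.63, the interleukin 11 receptor target Il11ra1/2 at -0.56, the nonclassical MHC gene H2-T23 at -0.52 and the NF-κB inhibitor Nfkbia at -0.45. The rule required each to be lower outside in 6 of 6 areas.

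The named genes with the largest falls outside cells had many transcripts over nuclei. The transcript table places each transcript of a cell in the nucleus, the cytoplasm or at the membrane, a reading that uses the same inside counts as the folds but not the outside ones. Of inside transcripts, 89.1% of Neat1, 76.6% of Vegfa, 76.4% of Il15ra, 74.1% of Clec2d and 69.1% of Tyms were nuclear, against 47.7% of gene transcripts as a whole. The corresponding values were 20.98% for Apoc1, 23.03% for Ttr, 23.5% for Gpx1, 24.2% for Gc and 53.8% for Ppia. Negative probes had 28.9%.

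When the 735 genes were divided into 4 sets of 183 or 184 by nuclear share, the median share outside was 7.88%, 6.98%, 6.56% and 5.598% from the least to the most nuclear set. In the least nuclear set 109 of 184 genes were called higher and 8 lower outside, and in the most nuclear set 1 was called higher and 108 lower. Spearman's rho between share outside and nuclear share was -0.74 over these genes, which share libraries and segmentation. Because nuclear transcripts always count as inside, part of this order is built in, and how large a part was not tested. The length of the longest annotated transcript, known for 718 of the genes from GENCODE vM21, showed no such order. Median shares outside in 4 sets from short to long were 6.68%, 6.82%, 6.61% and 6.64%, and rho was -0.04.

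**Figure D3:**
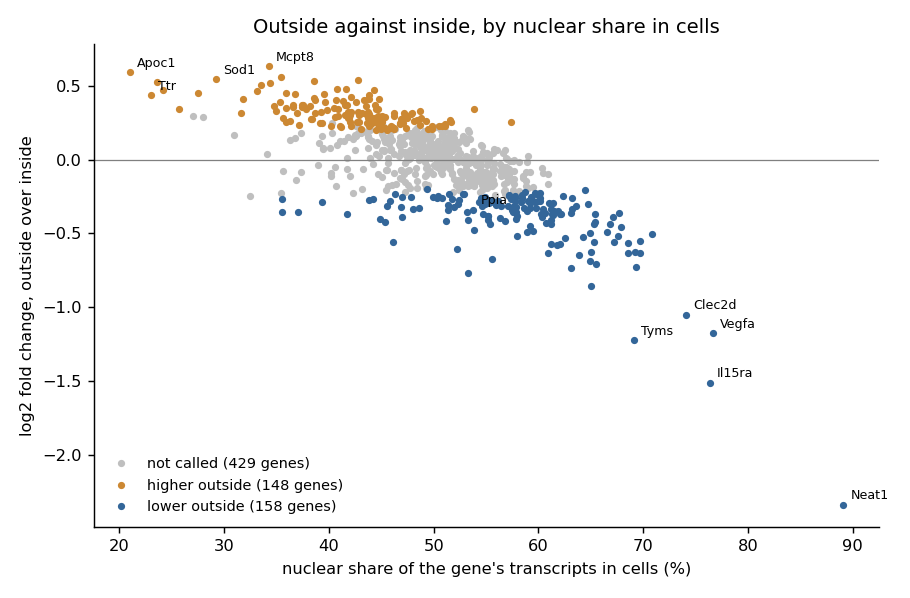
Log2 fold change outside over inside cells against the nuclear share of the gene's transcripts in cells, in percent, for the 735 genes above the highest negative probe, with 148 called higher outside in orange, 158 called lower in blue and the rest in grey. The points run from Apoc1 at 20.98% nuclear and 0.59 to Neat1 at 89.1% and -2.34.

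By cell type, hepatocyte genes were divided. The counts of each list are to be read against the 19.2% of all genes called higher and the 18.7% called lower. Of 14 genes for secreted plasma proteins, 5 were called higher outside and 3 lower, with a median log2 fold of 0.20 against 0.01 for all genes. Apoc1 and Gc led the risers, whereas the acute phase gene Crp (-0.38) and the growth factor Igf1 (-0.32) fell. The list as a whole had a share outside of 5.30%, 7.69% and 9.90% in control and 8.25%, 8.52% and 11.4% in HIRA KO areas. It held 12.2% of outside gene transcripts and 9.11% of inside ones. Of 23 genes for hepatocyte enzymes and regulators, 2 were called higher (Gpx1 and Sod1) and 6 lower, among them the fatty acid binding protein Fabp5 (-0.49), with a median of -0.16. All 4 genes listed under ribosome and ATP synthase were called higher outside. They were the synthase subunits Atp5e (0.41) and Atp5b (0.28), the ribosomal scaffold Rack1 (0.24) and Tpt1, which is part of neither. In planes 4 to 7 alone 0 of these 4 passed, with Atp5e at 0.27, Atp5b at 0.12 and Rack1 at 0.02.

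Endothelial and macrophage genes leaned toward the inside. Of 17 sinusoidal endothelial genes 9 were called lower outside, against 18.7% of all genes, and 1 higher, with a median of -0.26. The adrenomedullin co-receptor Ramp2 was at -0.85, the Notch ligand Dll4 at -0.85, the VEGF receptor Kdr at -0.77 and the TGF-beta co-receptor Eng at -0.68. For Kdr the shares outside were 3.24%, 1.76% and 4.70% in control and 5.29%, 4.55% and 4.66% in HIRA KO areas, below the overall share of the same area in 6 of 6. Of 15 Kupffer cell genes 7 were called lower and 0 higher, among them the growth factor receptor Csf1r (-0.61), the scavenger receptor Msr1 (-0.42), the iron exporter Slc40a1 (-0.39) and the secreted scavenger protein Cd5l (-0.36), with a median of -0.22. The median nuclear shares of the endothelial and Kupffer lists were 48.9% and 45.7%, near or below the 50.3% of all genes.

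For mesenchymal, larger vessel and biliary genes most counts lay near or below the 19.2% and 18.7% of all genes, so their members are given for their values. Of 8 stellate cell genes 3 were called lower and 0 higher, namely the chemokine Cxcl12 (-0.41), the ligand Bmp5 (-0.34) and the growth factor Hgf (-0.23). Of 30 matrix and fibroblast genes 5 were called higher and 4 lower. Col12a1 (0.37) and Dpt (0.35), a fibrillar collagen partner and dermatopontin, rose, whereas the proteoglycan Bgn (-0.35) and Col5a3 (-0.30) fell. Of 10 smooth muscle genes 2 were called higher, the myosin heavy chain Myh11 (0.44) and the actin binder Cald1 (0.28). Of 8 genes of larger vessels, Ace (0.47) was higher and Ephb4 (-0.34) lower. Of 16 biliary genes, Krt19 (0.32) and Cldn4 (0.30) were higher and Cd24a (-0.33) and Spp1 (-0.33) lower.

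Among blood cell genes, 4 of 12 neutrophil genes were called higher outside and 0 lower (Il1r2, Mmp9, S100a8 and Mpo, from 0.42 to 0.23). Of 14 B and plasma cell genes 5 were higher and 2 lower, with the immunoglobulin chain Ighg1 at 0.39, the B cell receptor subunit Cd79a at 0.34, the secretory regulator Xbp1 at -0.37 and the immunoglobulin chain Igha at -0.56. Of 30 T and NK genes tested 7 were higher, with Ifng (0.53) and the transcription factor Eomes (0.45) in front, and 3 lower, among them Cxcr6 (-0.35) and Nkg7 (-0.34), a count of risers near the 19.2% of all genes. Of 9 MHC class II genes H2-Eb1 (0.27) and H2-Ob (0.27) were higher. Haemoglobin alpha (Hba-a1/2) was lower at -0.32, and the platelet gene Pf4, at -0.02, was not called. Of 7 cytoskeletal genes Tubb4b (-0.48) and Myl12a (-0.24) were lower.

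Genes of other organs and cytokines that resting liver does not make came last. Of 26 such genes 10 were called higher outside and 2 lower, with a median of 0.21, and only 11 of the 26 had more counts than the highest negative probe. The cytokine subunit Il12b was at 0.48, the keratins Krt17 and Krt15 at 0.47 and 0.39, and Krt10 at -0.56. Genes at or below the highest negative probe as a whole had a median of 0.04, with 44 of 263 called higher and 29 lower.

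**Figure D4:**
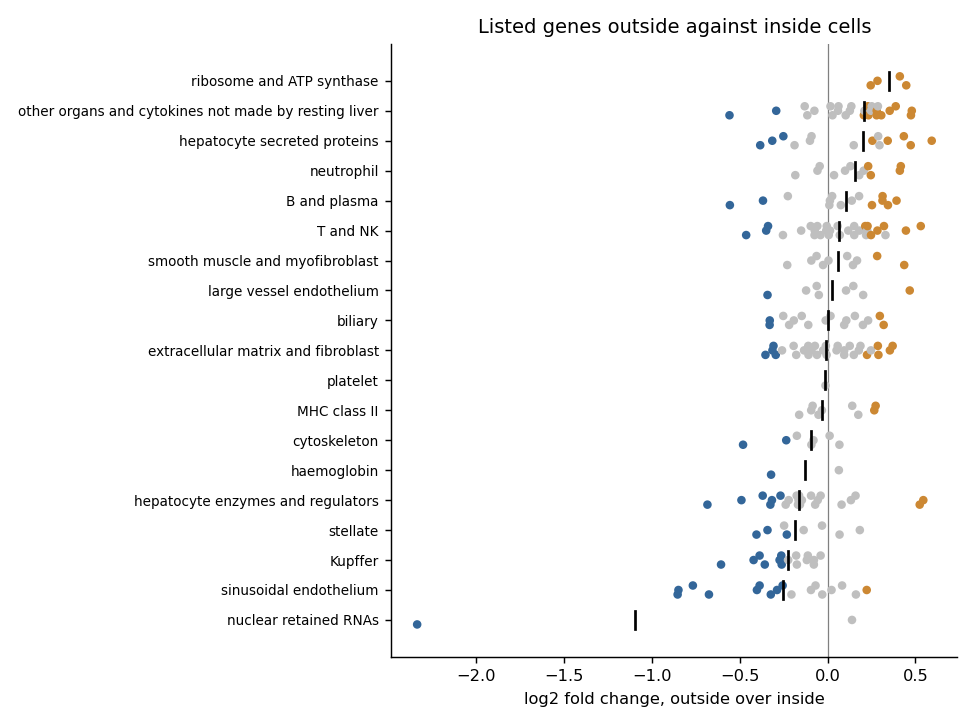
Log2 fold change outside over inside cells of the members of 19 gene lists, 1 point per gene, orange where called higher outside, blue where called lower and grey where not called, with black bars at the list medians. The medians run from 0.35 for ribosome and ATP synthase to -0.26 for sinusoidal endothelium and -1.10 for the pair of Neat1 and Meg3.

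Whether an outside transcript lay beside a cell with the same gene was asked for 37 genes, those with the most outside transcripts of each list. For each, the share of its outside transcripts whose nearest cell held at least 1 transcript of the gene was set over the same share for all outside gene transcripts of the area. The latter pools all fields of an area. A ratio above 1 thus does not separate lying beside a cell with the gene from lying in the same part of the area. Of the 37 genes, 30 had a mean log2 ratio above 0 and 11 were higher in 6 of 6 areas. For those 11 the exact sign-flip p was 0.031, the smallest that 6 areas allow, and the adjusted p over 37 genes was 0.105, so 0 of 37 passed the correction and 11 had an unadjusted p under 0.05.

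The immunoglobulin light chain Igkc had the largest ratio of the 11. Its nearest cell held the gene for 83.4%, 15% and 52.3% of its outside transcripts in control and 86.6%, 34.8% and 80.4% in HIRA KO areas. For all outside transcripts the values were 25.1%, 12.6% and 9.86% in control and 32.3%, 13.5% and 28.3% in HIRA KO. The ratio was 2.73-fold on average and was smallest in the second control area. The heavy chain Ighm had a similar mean, 2.82-fold, in 5 of 6 areas (exact sign-flip p = 0.0625, adjusted p = 0.136), and in the second control area it was below 1.

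The MHC class II genes Cd74, the invariant chain, and H2-Ab1 had ratios of 1.57 and 1.42, the biliary and secretory gene Clu 1.49, the matrix gene Dcn 1.32, the chemokine Cxcl12 1.18 and the pericyte gene Rgs5 1.23. For Cd74 the shares were 67.3%, 29.5% and 40.7% in control and 86.1%, 45.2% and 84.3% in HIRA KO areas, against 22.4% to 51.9% for all outside transcripts. Hepatocyte genes had ratios of 1.19 or less, but a ratio cannot exceed the inverse of the share for all outside transcripts. That share was higher for the hepatocyte genes than for the others of the 11. In the second HIRA KO area it was 91.4% for Ttr and 13.5% for Igkc. The size of a ratio thus also depends on how many cells hold the gene, and genes cannot be ranked by it. Ttr was in the nearest cell for 83.4 ± 12.6% of its outside transcripts against 72.7 ± 15.8% of all (SD, n = 6 areas), a ratio of 1.16, and Apoc1, Sod1 and Gpx1 had 1.19, 1.14 and 1.11. Neat1 had 1.05 and was higher in 4 of 6 areas. Among genes with few outside transcripts the means lay on both sides of 1, with 0.759 for Ackr1, 0.797 for Pf4, 0.929 for Meg3, 0.986 for Il11, 1.02 for Gzmb and Mmp9, 1.23 for Elane and 1.25 for Hba-a1/2, and each of these varied in direction between areas. Ratios below 1 were not confined to these genes. Myl12a had 0.791 with 684 outside transcripts and was higher in 1 of 6 areas (exact sign-flip p = 0.0625, adjusted p = 0.136). Fcer1g had 0.976 with 1046 outside transcripts.

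**Figure D5:**
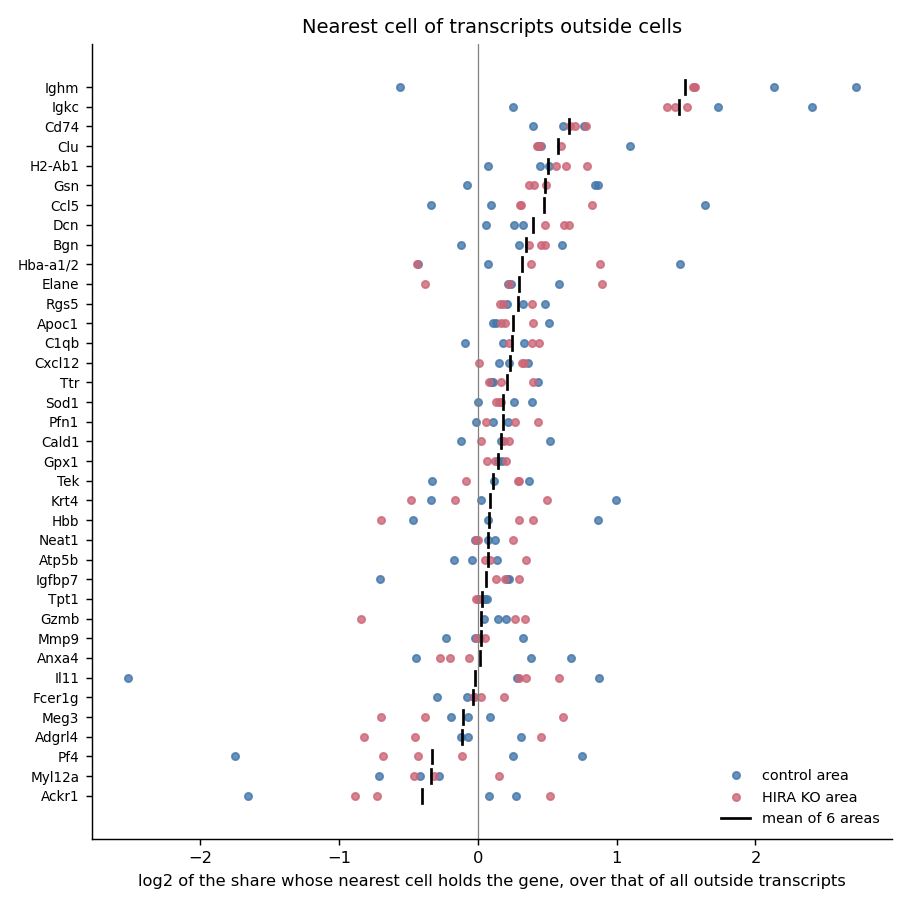
Log2 of the share of a gene's outside transcripts whose nearest cell held that gene, over the same share for all outside gene transcripts, for 37 genes, with 1 point per area (control blue, HIRA KO red) and a black bar at the mean of 6 areas. Igkc and Ighm have the largest means, and 11 genes lie above 0 in 6 of 6 areas.

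Between genotypes, 0 of 998 genes (0%) differed in the outside over inside ratio by the interaction of compartment and genotype in edgeR, with 58 at an unadjusted p under 0.05 and 0 called by DESeq2. For the outside counts alone 0 of 998 genes (0%) passed in edgeR, again with 58 at an unadjusted p under 0.05 and 0 in DESeq2, whereas edgeR called 4 when the row on the slide was added as a blocking term, which pairs 1 control and 1 HIRA KO area per row. Inside cells, 2 genes (0.2%) passed, Igha and Col1a1, named here after their values were seen. The median over all genes of the outside fold was -0.01 under TMM and -0.18 when scaled by library size alone.

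Igha, the heavy chain of IgA, had 454, 456 and 506 CPM inside cells in control and 1344, 1251 and 876 in HIRA KO areas, without overlap (log2 fold change 1.40 ± 0.14 SE, edgeR adjusted p = 0.000218). Outside cells it had 434, 513 and 384 in control and 930, 579 and 496 in HIRA KO areas, where the groups overlapped (0.73 ± 0.23 SE, edgeR adjusted p = 0.755). Col1a1, a chain of fibrillar collagen, had 628, 543 and 545 inside in control and 1009, 942 and 698 in HIRA KO areas (0.74 ± 0.12 SE, edgeR adjusted p = 0.0271). Outside its CPM values were 831, 368 and 416 in control and 828.97, 569 and 528 in HIRA KO areas, with overlap. The call for Col1a1 was lost without the second control area, the third control area, the first HIRA KO area or the second HIRA KO area, and when scaled by library size.

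The gene with the lowest p in both outside comparisons was Il1rap, the accessory chain of the interleukin 1 receptor, named after its values were seen. Outside cells it had 452, 336 and 432 CPM in control and 746, 677 and 701 in HIRA KO areas, without overlap. Inside it had 820, 782 and 711 in control and 731, 729 and 844 in HIRA KO areas, which overlapped. The outside fold was 0.96 ± 0.19 SE on the log2 scale (edgeR adjusted p = 0.146, or 0.00124 with the slide row as a block) and the change of the ratio 0.85 ± 0.20 SE (edgeR adjusted p = 0.116). It rested on 312 outside counts, fewer than the highest negative probe had.

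In CPM, 17 of 1000 genes (1.7%) were higher in every HIRA KO area than in every control area outside cells, and 161 (16.1%) were lower. CPM scale by the total alone, where the median outside fold over all genes was -0.18, against -0.01 under TMM. The counts of 17 and 161 hold for that scale only, and edgeR called 0 genes lower on either scale. The list medians that follow are under TMM. Of the 14 secreted plasma protein genes 2 were higher without overlap and 0 lower, with a median outside fold of 0.55 on the log2 scale beside 0.31 inside. The 4 genes listed under ribosome and ATP synthase, Tpt1 included, had medians of 0.60 outside and 0.54 inside, and the 9 MHC class II genes 0.45 and 0.34. Of 17 sinusoidal endothelial genes 6 were lower without overlap and 0 higher, with medians of -0.07 outside and -0.06 inside. In bulk sums of this kind, fewer cells of a type and less RNA per cell cannot be told apart, and none of these list members passed the test outside cells.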

How the data were processed

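The deposited count table holds, per cell and target, the number of decoded transcripts as raw counts, and with it the authors gave a table of single transcripts, cell outlines and field positions, with decoding and segmentation by the platform (versions are not given in the sources used here). The 50 lines with cell number 0 gave 0 sums that differed from the transcript table. Counts were summed per tissue area. Genes were tested with edgeR 4.0.16 (quasi-likelihood, TMM, filterByExpr, R 4.3.3), with outside and inside sums of 6 areas and area as a block. DESeq2 1.42.0 and limma 3.58.1 on fields of view were alternatives, and the code was tested on simulated data. Area values were compared by exact permutation (3 against 3) or exact sign-flip tests (6 pairs), two-sided. Distances were taken on outlines drawn on the grid of 4256 pixels per side. The pixel size was not used. Counts are decoded spots, so molecular identifiers do not apply. The SEs and p-values of the fits and tests on areas use the spread between the 6 tissue areas.

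Named genes are up to 10 per direction with the largest fold past the threshold, the same direction in 6 areas and more outside and inside counts than the highest negative probe (418 and 3946), the 10 with most outside transcripts, and up to 4 called members per list with the lowest p, except where the text says otherwise. Some genes named by these rules are not reported here. The members, lists and tests were chosen with earlier results of these data known. Probe sequences and positions were not used here. Density by area column, position and genotype, and planes 4 to 7 alone, were alternatives added after seeing the data.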

Additional observations from a re-analysis of the deposited data

Results flagged for a closer look

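In 124 checks of 1 value against the others of its set, chance flags about 1 in 20, and 8 stood apart. Within the second HIRA KO area, 1 field of view had 14.7% of gene transcripts outside cells, against 7.86% for the next highest and 3.69% for the lowest of that area. The same field had the largest space between cells of its area, 25.1%. Among nearest cell ratios, on the log2 scale, Ighm was at -0.56 and Igfbp7 at -0.71 in the second control area, Clu at 1.09 in the third control area, Gzmb at -0.84 in the third HIRA KO area and Il11 at -2.51 in the first control area. Vegfa had 4.40% of its transcripts outside cells in the first HIRA KO area, above the other 5 areas. Igha had 2.92% outside in the second HIRA KO area, below the other 5. No test bears on the source of any of these values.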

How the results depend on the processing

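The count of genes higher or lower outside cells depended on the scale. Scaled by negative probes, 0 genes were higher and 952 lower, and with only outside transcripts more than 20 pixels from a cell 105 were higher and 118 lower. Without the area as a block 90 were higher and 91 lower. Other settings stayed within 1.5 times of 192 and 187, namely library size alone (137 higher and 211 lower), DESeq2, kept cells, no border, planes 4 to 7, limma on fields of view and each area left out (129 to 182 higher and 142 to 189 lower). The limma fit took each field as a replicate and had no term for the tissue area. Its 273 higher and 183 lower calls therefore do not describe the spread between areas.

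Scaled by negative probes, log2 folds turned negative for 35 of the 36 named genes called higher outside, all but Mcpt8 (0.019, not called). They were -0.078 for Sod1, -0.075 for Parp1, -0.084 for Ifng, -0.064 for Fgf13, -0.094 for Reg1, -0.14 for Kit, -0.15 for Pgr, -0.18 for Mmp1a and -0.17 for Tpt1. They were -0.19 for Ttr, -0.030 for Apoc1, -0.10 for Gpx1, -0.15 for Gc, and, of genes not called, -0.32 for Apoe, -0.33 for Selenop and -0.58 for B2m. Further values were -0.14 for Ace, -0.25 for Dpt and Col12a1, -0.18 for Myh11, -0.34 for Cald1, -0.32 for Cldn4, -0.29 for Krt19, -0.33 for H2-Eb1, -0.35 for H2-Ob and -0.17 for Eomes. For Ighg1 the value was -0.21, for Cd79a -0.28, for Mmp9 -0.20, for Il1r2 -0.19, for Mpo -0.39, for S100a8 -0.35, for Atp5e -0.22, for Rack1 -0.37, for Atp5b -0.34, for Krt17 -0.15, for Il12b -0.13 and for Krt15 -0.23. This scale replaces the library size and so moves all genes by a similar amount. The median fold over all genes went from 0.01 to -0.60. The values above thus reflect 1 common shift and not separate results per gene. Why negative probes lay outside more often was not tested. B2m, near 0 and not called, was at -0.055 beyond 20 pixels, -0.22 in planes 4 to 7, -0.0092 on fields of view, and -0.023 to 0.091 with 1 area left out.

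Of the named calls against inside cells, 36 higher and 38 lower outside, 18 and 15 were lost without the area as a block, 14 and 6 in planes 4 to 7, 8 and 7 beyond 20 pixels, 5 and 0 by library size alone, 3 and 1 by DESeq2 and 3 and 1 on fields of view, where fields and not areas were the replicates. Besides Ttr and Ppia, calls lost were those of H2-Eb1, H2-Ob, S100a8 and Hgf without the first control area, of H2-Eb1, H2-Ob, S100a8, Hgf, Cald1, Cd24a, Rack1 and Atp5b without the second and of S100a8, Hgf, Cd24a, Spp1 and Myl12a without the third. Without the first HIRA KO area those of H2-Eb1, H2-Ob, Mpo, Rack1, Spp1 and Myl12a were lost, without the second those of Mpo, S100a8, Rack1, Atp5b, Bmp5, Hgf, Cd24a, Spp1 and Myl12a, and without the third those of H2-Eb1, H2-Ob, Mpo, Rack1, Atp5b, Spp1 and Myl12a.

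For genotype, the ratio comparison gave 4 genes higher and 1 lower on fields of view by limma, and 0 to 2 higher and 0 to 1 lower with 1 area left out, the calls coming without the first control area. Outside counts gave 4 higher genes with the slide row as a block, which pairs 1 control and 1 HIRA KO area per row, and 10 of 189 genes tested on fields of view. Il1rap passed with that block (edgeR adjusted p = 0.00124) and for the ratio on fields of view (limma adjusted p = 0.0157). That ratio fit had no term for the tissue area and took each field as a replicate. Its calls therefore do not describe the spread between areas, where the fit on areas gave 0 calls (lowest edgeR adjusted p = 0.116). Inside counts gave 1 higher gene by library size and 1 to 3 with 1 area left out. By replicate number, no paired analysis was possible because the labels number fields of view and not mice, so the slide row was the only pairing run.

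With 1 area left out, 5 pairs cannot go below p = 0.0625. The difference of negative and gene shares was then 2.86 to 3.27 percentage points, the log2 ratio of negative to gene counts 0.54 to 0.61, and the log2 density ratio -1.52 to -1.41 for genes and -0.90 to -0.86 for negative probes. The genotype difference in negative share ran from -0.72 to 1.32 points and that in outside space from -1.68 to 0.81 points. Nearest cell log2 ratios with 1 area left out ran from -0.25 to 0.012 for Meg3, -0.078 to 0.23 for Hbb, -0.23 to 0.025 for Adgrl4, -0.12 to 0.10 for Anxa4, -0.080 to 0.017 for Fcer1g, -0.035 to 0.20 for Gzmb, -0.036 to 0.075 for Mmp9, -0.20 to 0.48 for Il11 and -0.092 to 0.20 for Krt4. Within 20 pixels of a cell they were -0.067 for Rgs5, -0.015 for Anxa4, 0.082 for Fcer1g, -0.088 for Gzmb, -0.14 for Elane, -0.00104 for Tpt1 and -0.11 for Krt4, and Il11 and Pf4 gave no value because 1 area had a share of 0. The tests of area shares, densities and distances kept their direction under every other alternative run.

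Outside sums were the limit of depth, at 55324 to 127006 gene transcripts per area over 1000 genes.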
